A study of Mus musculus with 8 samples.

Results

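The genes described here encode proteins that coat lipid droplets or set how fast the triglyceride inside them is broken down: the CIDE proteins Cidec and Cideb, the perilipins Plin2, Plin3, Plin4 and Plin5, the lipase Pnpla2 with its coactivator Abhd5, and the lipase inhibitors G0s2 and Hilpda. They were chosen by name, with earlier results of these data known. All 10 were listed in both deposited tables, among 13774 genes in one and 11773 in the other. Liver RNA was sequenced from C57BL/6 mice fed a diet with 42% fat for 8 weeks, a diet that every group received, the WT controls included. Mice homozygous for a Ube3a transgene (Ube3a TG homo, which overexpress this ubiquitin ligase) were set against a WT pair in one table. Ube3a het mice, which carry 1 knockout allele beside 1 WT allele, were set against another WT pair in a second table. Each group had 2 libraries. The labels give neither the promoter that drives the transgene nor the age of the mice, and they do not say that each library is a different animal, so every p-value here rests on a spread between samples that may be technical.

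A lipid droplet is a core of triglyceride and sterol ester under a phospholipid layer studded with proteins. Perilipins sit on that layer and limit the access of lipases, and CIDE proteins gather where droplets touch and let lipid pass from the smaller to the larger. PNPLA2 (also called ATGL) starts the hydrolysis of triglyceride. ABHD5 (CGI-58) activates it, and G0S2 and HILPDA inhibit it. In the liver, PLIN2 is the coat protein classically followed in steatosis, CIDEB takes part in loading lipid onto very-low-density lipoprotein, and CIDEC, abundant in white fat, appears in hepatocytes that store much triglyceride.

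In het liver Cidec, Plin4, G0s2 and Plin2 rose over the WT pair by 7.98-, 6.58-, 2.75- and 1.91-fold, the calls of limma at a Benjamini-Hochberg adjusted p under 0.05 over all 11773 genes. All 4 calls ended when the 8 libraries of both tables were put in 1 fit (limma adjusted p = 0.170 for Cidec, 0.325 for Plin4, 0.173 for G0s2 and 0.257 for Plin2), where 0 genes were called in het. In TG liver both libraries lay below both WT libraries for the same 4 genes. That also held for Cideb and, in all, for 21.6% of the 13774 genes. For Plin4 the nearest libraries were at 334 in TG and 346 in WT. The group means of the 4 genes called in het were lower in TG, on the log2 scale, by 6.53-, 2.59-, 2.75- and 1.73-fold. None of these changes passed that threshold. The lipase Pnpla2, its coactivator Abhd5 and the CIDE paralog Cideb differed from WT by at most 1.24-fold in each genotype and were not called. Fold changes are on the log2(value + 1) scale of the normalised read counts.

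The 250 bases before the annotated start of each of the 4 genes called in het are shown because these are the members that passed the threshold there. They come from RefSeq on GRCm38.p6, in which all 10 members matched, with 13 start windows in all. Capitals mark the nuclear receptor hexamer AGGTCA, the E-box CACGTG, the CCAAT box, the TATA box TATAAA, the GC box GGGCGG and the cAMP response element TGACGTCA on either strand.
Cidec (chr6:113435761-113436010, − strand): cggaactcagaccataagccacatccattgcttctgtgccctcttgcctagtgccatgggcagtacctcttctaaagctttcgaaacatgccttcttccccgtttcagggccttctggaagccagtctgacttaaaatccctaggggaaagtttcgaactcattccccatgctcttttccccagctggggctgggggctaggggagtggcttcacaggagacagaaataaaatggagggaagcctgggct
Plin4 (chr17:56109783-56110032, − strand): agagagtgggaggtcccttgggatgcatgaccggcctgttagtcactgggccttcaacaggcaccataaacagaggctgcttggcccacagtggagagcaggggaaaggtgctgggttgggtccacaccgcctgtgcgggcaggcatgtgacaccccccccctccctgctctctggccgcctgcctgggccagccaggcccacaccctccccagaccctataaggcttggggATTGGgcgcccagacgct
G0s2 (chr1:193273189-193273438, − strand): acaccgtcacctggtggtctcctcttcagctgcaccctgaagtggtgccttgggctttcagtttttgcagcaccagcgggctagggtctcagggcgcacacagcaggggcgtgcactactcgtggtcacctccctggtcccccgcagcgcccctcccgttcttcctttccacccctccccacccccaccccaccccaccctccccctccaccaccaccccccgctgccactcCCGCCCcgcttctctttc
Plin2 (chr4:86670060-86670309, − strand): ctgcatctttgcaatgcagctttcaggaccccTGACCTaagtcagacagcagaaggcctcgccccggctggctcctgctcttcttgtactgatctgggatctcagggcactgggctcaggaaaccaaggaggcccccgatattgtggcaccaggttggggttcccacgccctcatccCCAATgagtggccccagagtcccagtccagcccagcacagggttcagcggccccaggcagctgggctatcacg

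In these windows, extended by the 50 bases after the start, few of the motifs occurred. The Plin2 window held AGGTCA on the reverse strand 218 bases before the start, CCAAT 73 bases before it and CACGTG across the start itself, the last a motif of 7.15% of the 32851 start windows in RefSeq. Plin2 was also the only member with a near match to the direct repeat of AGGTCA with 1 base between the copies, the DR1 element of PPAR receptors, with 2 of 12 letters different, a match found in 3.86% of all windows. AGGTCA occurred in 3 members (Abhd5, Plin2 and Plin5) and in 16.3% of all windows. GGGCGG occurred in 8 members and in 35.7% of windows, Cidec and Plin4 being the members without it. CCAAT occurred in Plin2, Plin3, Plin4 and Plin5, all 4 perilipins, and in 37.4% of windows. TATAAA, present in 13.6% of windows, was found in Cideb alone among the members, and TGACGTCA, present in 1.79%, in none. The Cidec window shown held none of these letters, so it stands in lower case throughout. A match describes letters only and does not show that a factor binds.

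Depth recovered from the normalised values was 44193275 to 47928229 reads per library for TG and its WT pair, and 13171145 to 17748088 for het and its WT pair. Ube3a, the check of the labels, had normalised counts of 1187 and 1359 in WT and 5991 and 5938 in TG (limma adjusted p = 0.0586). In the het table it had 369 and 409 in WT and 301 and 280 in het (limma adjusted p = 0.129). Hepatocyte markers were present as the tissue label says, with 9 of 10 in each table. Markers of other cells were summed per library. The summed level of 10 endothelial markers was 16555 to 16624 in TG against 19422 to 19912 in WT, and 5803 to 6032 in het against 4795 to 5184. That of 11 Kupffer cell and macrophage markers was 16899 to 22028 in TG against 25535 to 27551, while in het 9 of them overlapped with WT (6989 to 9672 against 5714 to 7957). Stellate cell markers overlapped in TG (22504 to 29885 against 24136 to 25178), and in het they were 7225 to 7677 against 7744 to 7929. Of 5 mesothelial markers 3 were measured in the het table, at 43.1 to 54.1 in het against 166 to 192 in WT. The part of these cells in the results below was not tested, and in whole liver fewer cells of a type and less RNA per cell cannot be told apart. Fat tissue bears on Cidec and Plin4, which adipocytes express strongly: of 10 adipocyte markers 3 were measured in the TG table (Fabp4, Lipe and Car3) and 4 in the het table, with Cfd added. Adipoq, Lep, Retn, Plin1, Cidea and Slc7a10 were sought and were not found under these names among the genes of either table. The summed level of those measured, mostly Car3, was 39320 to 42304 in het against 34112 to 47438 in WT, and 84965 to 111402 in TG against 135901 to 210490. In the WT pair of the het table Car3 averaged 40311, beside 127 for Fabp4 and 330 for Lipe. In the WT pair of the TG table it averaged 172080, beside 420 for Fabp4 and 696 for Lipe. In either table the sum is thus in effect the level of Car3 and says little of the other markers. Cfd, the adipsin gene, stood at 22.4 and 54.1 in het against 1.95 and 13.3 in WT (log2 fold change 2.47, limma adjusted p = 0.303). Fabp4, a fatty acid binding protein of adipocytes and macrophages, stood at 237 and 243 against 104 and 150 (0.93, limma adjusted p = 0.0511). The part of fat tissue in the results was likewise not tested.

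Of the CIDE genes, Cidec rose in het and Cideb was not called in either genotype. Cidec (ENSMUSG00000030278, chromosome 6, 113424634 to 113435760, − strand, GRCm38) had normalised counts of 127 and 138 in WT libraries of the het table, while het libraries had 947 and 1196. Both het libraries thus lay far above both WT libraries. The means were 1072 ± 176 (SD, n = 2) against 133 ± 8.23, or 2.997 as log2 fold change (SE 0.13, 95% interval 2.69 to 3.30, limma adjusted p = 6.84e-05), and no gene of the het table had a smaller p. In the TG table Cidec was at 595 and 1187 in WT and at 88.7 and 184 in TG. The groups did not overlap, although the WT libraries differed from each other by about as much as the TG libraries did. The log2 fold change was −2.71 (SE 0.51, 95% interval −4.08 to −1.34, limma adjusted p = 0.440), and 0.109% of the genes of the table had a change at least as low. Cideb (ENSMUSG00000022219, chromosome 14, 55754050 to 55758458, − strand) was at 1139 and 1081 in WT and 1141 and 1164 in het, a log2 fold change of 0.05 (95% interval −0.15 to 0.26, limma adjusted p = 0.822). In TG it was at 2522 and 2610 against 3276 and 2666 in WT (log2 fold change −0.20, 95% interval −0.57 to 0.16, limma adjusted p = 0.676). Cideb shares 1136 exon bases with Nop9, a ribosome biogenesis gene on the opposite strand. Whether the authors counted by strand is not given in the sources used here, so reads there cannot be assigned with certainty. Nop9 had log2 fold changes of −0.13 in het and −0.10 in TG.

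**Figure D1:**
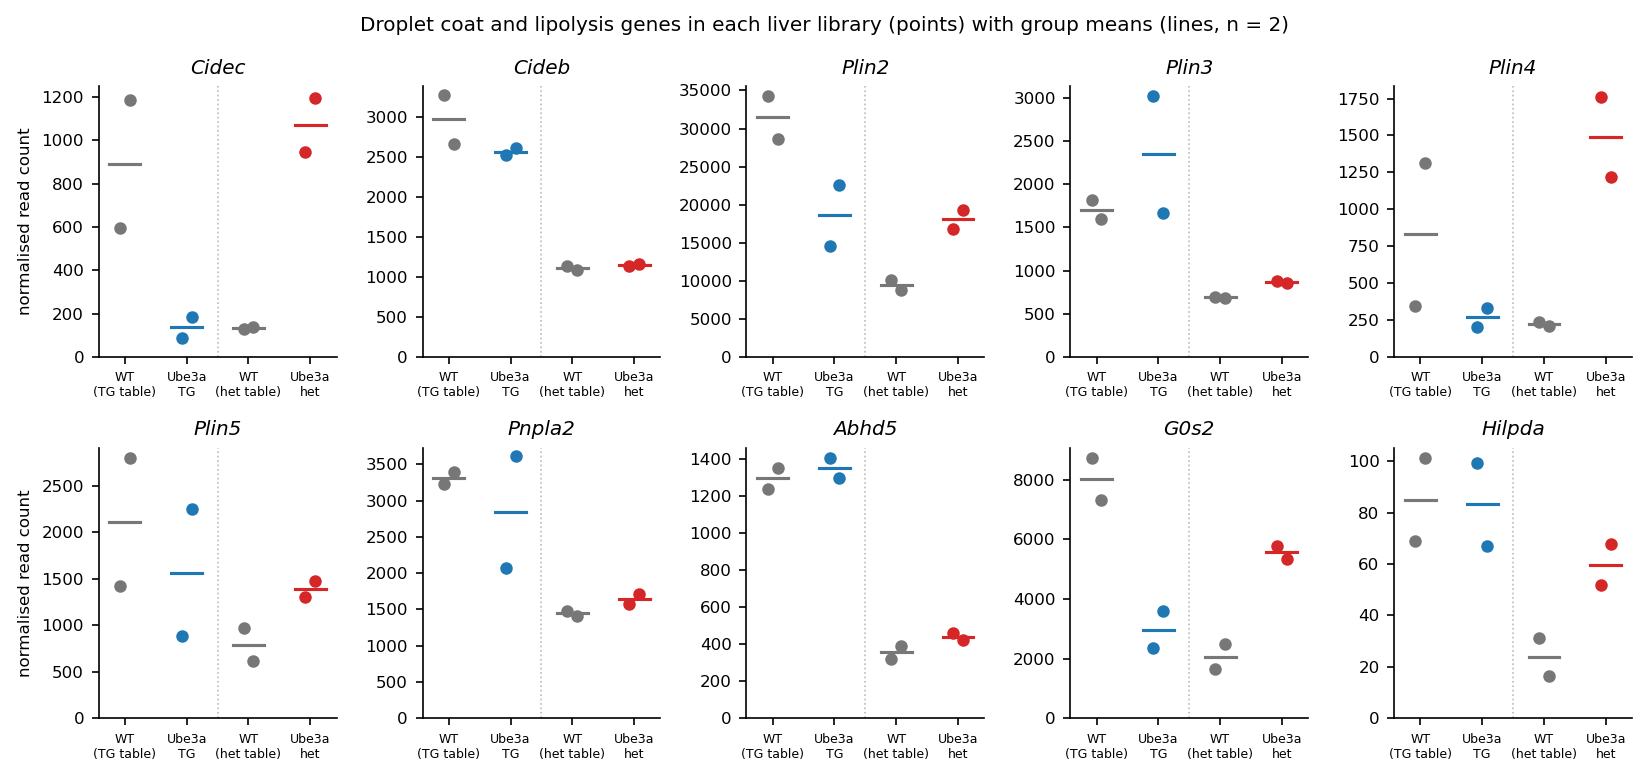
Normalised read counts (vertical axes, from 0, each gene on its own scale) of the 10 genes in the 8 libraries. Points are libraries, lines are group means (n = 2), and the dotted line parts the TG table from the het table, which were normalised separately and are not compared in level. Cidec, Plin2, Plin4 and G0s2 are lower in TG and higher in het than in the WT pair of the same table.

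Within a library, the ratio of Cidec to Cideb per kilobase of merged exon was 0.665 and 0.824 in het, and 0.0892 and 0.103 in its WT pair. In the TG table it was 0.146 and 0.357 in WT and 0.0282 and 0.0566 in TG. In either table the mutant and WT ratios did not overlap. The Cideb level in these ratios carries the doubt over exon bases shared with Nop9. With 2 libraries against 2 the smallest exact two-sided permutation p is 0.333, so the ratios are given without a test.

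Among the perilipins, Plin2 and Plin4 rose in het. Plin2 (ENSMUSG00000028494, chromosome 4, 86648386 to 86670060, − strand), the main droplet coat of hepatocytes, was at 10039 and 8837 in WT and 16860 and 19271 in het. The means were 18065 ± 1705 (SD, n = 2) and 9438 ± 849, or 0.94 as log2 fold change (SE 0.13, 95% interval 0.64 to 1.23, limma adjusted p = 0.0160). Every het library exceeded every WT library. The call ended without het replicate 2 (limma adjusted p = 0.0729). In TG Plin2 was at 14607 and 22565 against 34316 and 28639 in WT (log2 fold change −0.79, SE 0.26, 95% interval −1.46 to −0.12, limma adjusted p = 0.534). Both TG libraries lay below both WT libraries here, with the first TG library the lowest of the 4.

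Plin4 (ENSMUSG00000002831, chromosome 17, 56100591 to 56109803, − strand), a coat protein best known from adipocytes, was at 238 and 207 in WT and 1757 and 1222 in het. Its means of 1489 ± 379 (SD, n = 2) and 223 ± 21.8 gave 2.72 as log2 fold change (SE 0.18, 95% interval 2.27 to 3.17, limma adjusted p = 0.00460). This was a rise of similar size to that of Cidec. The WT pair of the TG table was far apart for Plin4, at 346 and 1315, while TG had 202 and 334. One WT library was thus close to the TG libraries and the other well above them. The log2 fold change was −1.38 (SE 0.75, 95% interval −3.50 to 0.75, limma adjusted p = 0.626). It was −2.34 without WT replicate 1 and −0.41 without WT replicate 2.

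Plin5 and Plin3 were not called. Plin5 (chromosome 17, 56111601 to 56117596, − strand), which tethers droplets to mitochondria in oxidative tissues, was at 972 and 615 in WT and 1311 and 1473 in het (log2 fold change 0.84, SE 0.24, limma adjusted p = 0.241). The groups did not overlap, and of the fits that left out 1 library Plin5 passed the threshold in that without WT replicate 1 (1.17, limma adjusted p = 0.0134). In TG the groups overlapped widely, with 881 and 2250 against 1427 and 2805 (−0.51, SE 0.61, limma adjusted p = 0.803). Plin3 (chromosome 17, 56277476 to 56292873, − strand), a largely cytosolic perilipin that joins young droplets, was at 690 and 685 in WT and 879 and 853 in het (log2 fold change 0.33, SE 0.09, limma adjusted p = 0.132). In TG it was at 3021 and 1670 against 1813 and 1597 (0.40, SE 0.30, limma adjusted p = 0.697), with the first TG library standing above the other 3. Plin4 and Plin5 are neighbours on the − strand of chromosome 17, with 1797 bases between them, Plin4 shares 17 bases with Hdgfl2 (not analysed here), and Plin3 lies 159879 bases beyond Plin5. Between Plin5 and Plin3, 2081 bases from Plin5, lies Lrg1, which encodes a secreted acute-phase glycoprotein. Lrg1 had log2 fold changes of 0.59 in het (limma adjusted p = 0.175) and −0.10 in TG (limma adjusted p = 0.954).

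Plin2 made up most of the perilipin transcripts in every library. Per kilobase of merged exon its share of the 4 perilipins was 76.8 to 88.9% over the 8 libraries. Plin5 followed at 6.22 to 13.5% and Plin3 at 3.40 to 14.7%, the highest Plin3 share being that of TG replicate 1. The Plin4 share was 5.10 and 3.19% in het, and 1.16 and 1.18% in its WT pair. In the TG table it was 0.545 and 2.24% in WT and 0.645 and 0.722% in TG, where the groups overlap. Plin2 itself kept a similar share in het (80.5 and 82.8%) and in its WT pair (80.6 and 83.1%). These shares are given without a test.

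**Figure D2:**
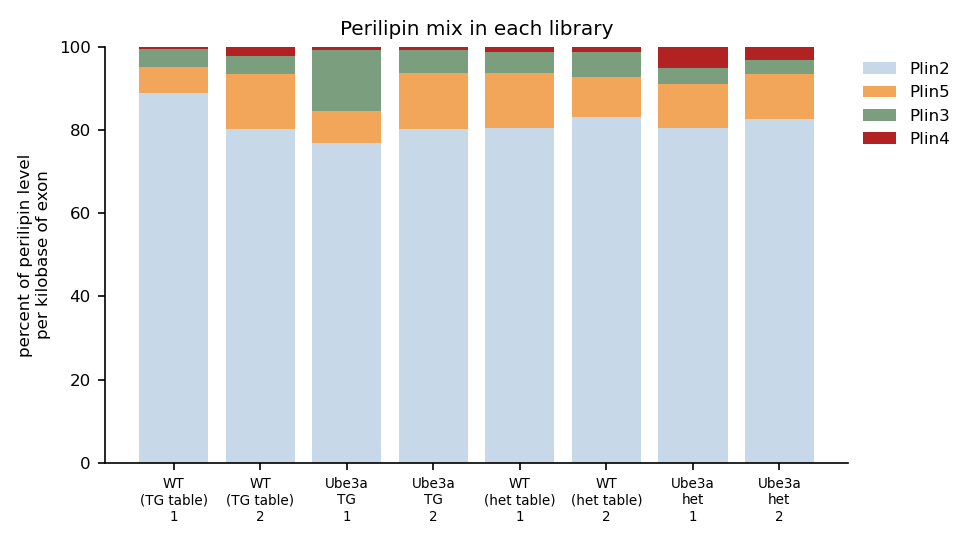
Share of Plin2, Plin5, Plin3 and Plin4 (percent, vertical axis) in the summed perilipin level per kilobase of merged exon, 1 bar for each of the 8 libraries. The Plin4 share is highest in the het libraries (5.10 and 3.19%), and the Plin3 share in TG replicate 1 (14.7%).

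Of the lipolysis genes, G0s2 rose in het, and Pnpla2, Abhd5 and Hilpda were not called. G0s2 (ENSMUSG00000009633, chromosome 1, 193272161 to 193273217, − strand), the protein inhibitor of PNPLA2, was at 1642 and 2482 in WT and 5789 and 5346 in het. The means of 5568 ± 313 (SD, n = 2) and 2062 ± 594 gave 1.46 as log2 fold change (SE 0.20, 95% interval 0.97 to 1.95, limma adjusted p = 0.0403). That call ended without het replicate 1 (limma adjusted p = 0.232) or het replicate 2 (limma adjusted p = 0.185). In TG G0s2 was at 2355 and 3589 against 8732 and 7311 in WT, so that the groups stood well apart. Its log2 fold change of −1.46 (SE 0.24, 95% interval −2.06 to −0.85) had a limma adjusted p of 0.299, the smallest of the 10 genes in TG. With 1 library left out the change ranged from −1.76 to −1.15.

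G0s2 lies wholly inside the span of Lamb3, a laminin chain gene on the opposite strand, though the exons of both share 0 bases. Lamb3 rose in het too, at a much lower level. It was at 84.8 and 93.3 in WT and 341 and 423 in het (log2 fold change 2.08, SE 0.15, limma adjusted p = 0.00103), and at 584 and 463 in WT against 128 and 277 in TG (−1.46, SE 0.40, limma adjusted p = 0.518). Without knowledge of the strand setting, reads of both genes cannot be kept apart with certainty.

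Pnpla2 (chromosome 7, 141455198 to 141460743, + strand), the triglyceride lipase, was at 1485 and 1413 in WT and 1571 and 1706 in het. The log2 fold change was 0.18 (95% interval −0.04 to 0.40, limma adjusted p = 0.447), an interval whose upper end lies below the estimates for Plin2 and G0s2. In TG it was at 2077 and 3620 against 3232 and 3389 in WT (−0.27, 95% interval −1.0 to 0.46, limma adjusted p = 0.771). The first TG library was low and the second above both WT libraries. Abhd5 (chromosome 9, 122351608 to 122381524, + strand), the coactivator, was at 321 and 393 in WT and 460 and 422 in het (0.31, 95% interval 0.03 to 0.60, limma adjusted p = 0.303). In TG it was at 1406 and 1295 against 1239 and 1348 (0.06, 95% interval −0.25 to 0.37, limma adjusted p = 0.878). Abhd5 shares 950 exon bases with an antisense transcript, A730085K08Rik, that was not analysed here.

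Hilpda (chromosome 6, 29272488 to 29275446, + strand), a small hypoxia-inducible inhibitor of the same lipase, was the scarcest of the 10 genes, with 16 to 102 reads per library. In het it was at 51.7 and 67.9 against 31.2 and 16.4 in WT (log2 fold change 1.35, SE 0.35, 95% interval 0.56 to 2.14, limma adjusted p = 0.116), with no overlap. In TG it was at 99.4 and 67.1 against 69.0 and 101, the same range as in WT (−0.03, SE 0.33, limma adjusted p = 0.982).

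The ratio of G0s2 to Pnpla2 per kilobase, of inhibitor to lipase, was 12.8 and 10.9 in het, and 3.83 and 6.09 in its WT pair. In the TG table it was 9.37 and 7.48 in WT and 3.93 and 3.44 in TG. The groups did not overlap in either table, in opposite directions. The ratio of Hilpda to Pnpla2 was lower by far, at 0.0318 to 0.131 over the 8 libraries, with 0.0901 and 0.109 in het against 0.0575 and 0.0318 in its WT pair. The ratio of Abhd5 to Pnpla2 overlapped in both tables. It was 0.149 and 0.125 in het against 0.110 and 0.141, and 0.343 and 0.181 in TG against 0.194 and 0.202.

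**Figure D3:**
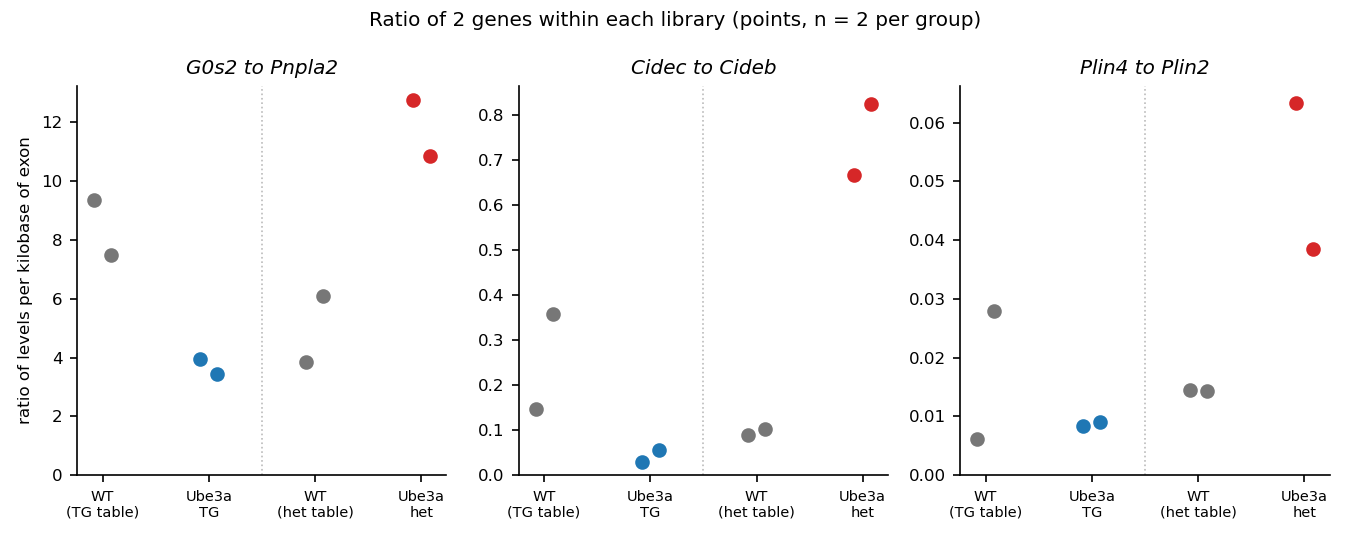
Ratios of levels per kilobase of merged exon within each library (vertical axes, from 0), with points for the 2 libraries of each group. Cideb shares exon bases with Nop9 on the opposite strand. G0s2 to Pnpla2 is 12.8 and 10.9 in het and 3.93 and 3.44 in TG, Cidec to Cideb is 0.665 and 0.824 in het, and Plin4 to Plin2 is 0.0634 and 0.0385 in het against 0.0144 and 0.0142 in its WT pair.

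In order of level per kilobase of merged exon, the WT pair of the het table had Plin2 (2687 ± 242, SD, n = 2) and G0s2 (2367 ± 682) at the top, which overlapped with each other. Cideb (746 ± 27.7) came next, and then Pnpla2 (480 ± 16.9) and Plin5 (380 ± 121), which differed by less than the SD of Plin5. Plin3 (182 ± 1.03) stood apart from both sides. Cidec (71.4 ± 4.44) and Abhd5 (59.9 ± 8.53) followed, without overlap between their libraries, and Plin4 (38.5 ± 3.77) and Hilpda (21.6 ± 9.49) were lowest. In het Cidec reached 577 ± 94.9, a spread that overlapped those of Plin5 (667 ± 55.1) and Pnpla2 (543 ± 31.5). Plin4 (258 ± 65.6) reached the level of Plin3 (229 ± 4.78). G0s2 (6392 ± 359) stood above Plin2 (5144 ± 485) there. This order rests on the merged exons, and those of Cideb share 1136 bases with Nop9. Plin2 has 3512 merged bases and 1888 in its longest transcript, Abhd5 5956 and 3157, and G0s2 871 by both. By the longest transcript Plin2 would stand above G0s2 in both groups, and Abhd5 above Cidec in the WT pair.

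The 10 genes were chosen with earlier results of these data known, so the shares below describe them and do not test them as a set. Counted together, all 10 genes had both het libraries above both WT libraries, where 24.3% of all genes did. Some of these changes were small, with log2 fold changes of 0.05 for Cideb and 0.18 for Pnpla2, neither of them called. The call was reached by 4 of 10, where 0.892% of all 11773 genes were called higher. Their median log2 fold change was 0.89, beside 0.00 over all genes. In TG 5 of 10 had both mutant libraries below both WT libraries, where 21.6% of all genes did, and 0 were called, as were 0% of the 13774 genes. At an unadjusted p under 0.05 limma counted 3 of 10 in TG (Cidec, Plin2 and G0s2, all lower) and 1256 of 13774 genes, 9.12%. The median log2 fold change was −0.39, beside 0.00 over all genes. Cidec, Plin4 and G0s2 lay among the genes of lowest log2 fold change in TG, with 0.109, 0.900 and 0.690% of genes at or below them, and among the highest in het, with 0.0170, 0.0510 and 0.433% of genes above them.

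**Figure D4:**
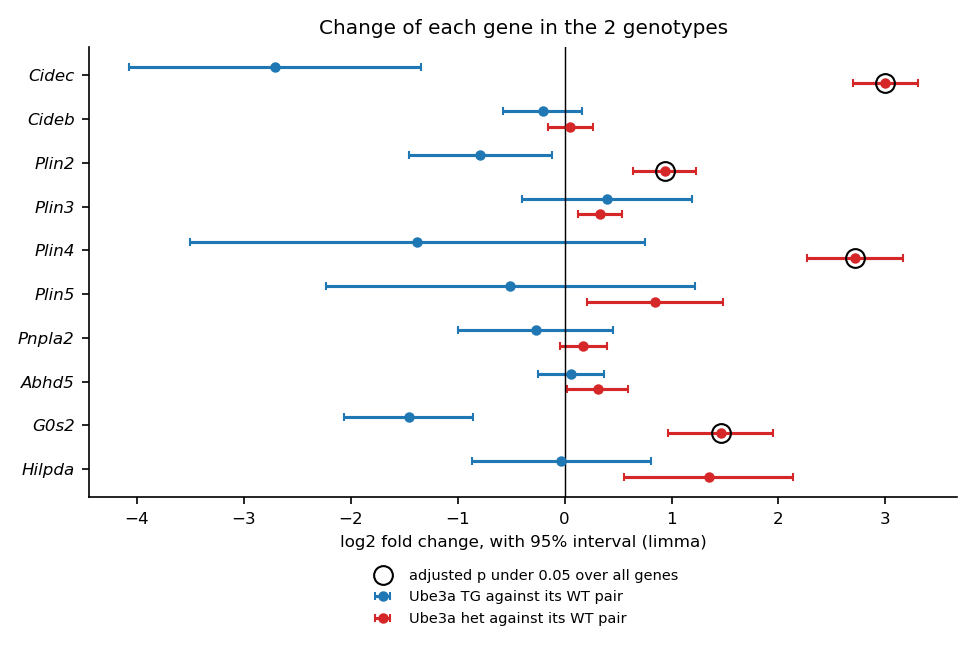
Log2 fold change of each gene (horizontal axis) with its 95% interval from limma, in TG (blue) and het (red), each against the WT pair of its own table. Black rings mark the 4 het values with an adjusted p under 0.05 (Cidec, Plin2, Plin4 and G0s2), and the TG intervals are the wider in all 10 genes.

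Whether a gene responded differently in the 2 genotypes was tested by the log2 fold change in TG minus that in het, in a joint limma fit of the 8 libraries over 11754 genes. Of the 10 genes 2 passed, Cidec and G0s2, where 0.23% of all genes were called in that direction. The difference was −5.70 for Cidec (SE 0.61, 95% interval −7.19 to −4.22, limma adjusted p = 0.0314) and −2.92 for G0s2 (SE 0.36, 95% interval −3.76 to −2.08, limma adjusted p = 0.0314). Plin2 missed the threshold (−1.72, SE 0.31, limma adjusted p = 0.0678), as did Plin4 (−4.09, SE 0.93, limma adjusted p = 0.159), whose WT pair in the TG table lies far apart. The call for Cidec ended when any library of the het table was left out (limma adjusted p = 0.0950 to 0.163). That for G0s2 ended without either WT library of the TG table, WT replicate 1 of the het table or either het library (limma adjusted p = 0.0768 to 0.158), and with the replicate number as a block (limma adjusted p = 0.0688). For Cideb, Pnpla2, Abhd5 and Plin3 the 95% intervals of the difference were −0.64 to 0.12, −1.21 to 0.32, −0.66 to 0.16 and −0.76 to 0.89.

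A list of 31 names of other droplet proteins and lipases was also chosen with earlier results of these data known. It held Tmem159 beside Ldaf1 and Spg20 beside Spart, which are older and newer names of the same genes. Of the names, 27 were measured in each table. In het 2 of 27 rose, both of them FIT proteins that help triglyceride bud into droplets, and 0 fell, where 0.892% of all genes were called higher. At an unadjusted p under 0.05 limma counted 10 of 27 in het, 37.0% beside 14.7% of all genes. Fitm1 was at 441 and 522 in WT and 952 and 1011 in het (log2 fold change 1.03, SE 0.11, limma adjusted p = 0.00499), and Fitm2 at 393 and 394 against 581 and 736 (0.73, SE 0.12, limma adjusted p = 0.0371). The list's median log2 fold change was 0.13, with 19 of 27 above 0. In TG limma called 0 of 27, with 3 at an unadjusted p under 0.05, which is 11.1% beside 9.12% of all genes, and the median was −0.09. That share is near the background, and none of the 3 genes passed the test. The smallest p there belonged to Fitm1 (−3.28, limma adjusted p = 0.541), which was at 78.9 and 482 against 1566 and 2312, to Bscl2, the seipin of droplet budding (−0.39, limma adjusted p = 0.543), and to the lipid transfer gene Vps13a (0.29, limma adjusted p = 0.543). For the difference between the genotypes limma called 0 of 27, with 9 at an unadjusted p under 0.05, which is 33.3% beside 16.7% of all 11754 genes. Bscl2 (−0.63, limma adjusted p = 0.159), Fitm2 (−1.58, limma adjusted p = 0.173) and Lipa, the lysosomal lipase (−0.67, limma adjusted p = 0.174), had the smallest p. Lipe, the hormone-sensitive lipase that acts after PNPLA2, had log2 fold changes of 0.31 in het and −0.16 in TG.

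Genes most like Cidec over the 8 libraries were sought by Pearson's r of log2 values centred on the WT mean of each table, among the 903 genes whose centred values had an SD of at least 0.5. The 5 nearest were Cdh4, a cadherin (r = 0.996), Pla2g6, a phospholipase (r = 0.991), Adora1, an adenosine receptor (r = 0.989), Cdkn1a, which encodes the cell cycle inhibitor p21 (r = 0.983), and Fbf1 (r = 0.983). Of the other droplet genes described here 5 reached that SD: G0s2 had r = 0.972, Plin2 0.963, Plin4 0.956, Plin5 0.823 and Hilpda 0.737. Cideb, Plin3, Pnpla2 and Abhd5 did not reach it and were not compared. The points share tables and depths, and only 4 of the 8 are mutant libraries, so these values are a description. Since values are centred on the WT mean, a high r mostly restates lower values in TG and higher values in het. Pla2g6 was at 841 and 784 in WT and 1381 and 1357 in het, and at 3821 and 4113 in WT and 1963 and 2568 in TG. Cdh4 was scarce, with 18.5 and 20.5 in WT and 31.0 and 34.5 in het, so that its rank rests on few reads.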

How the data were processed

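Liver RNA was extracted with Trizol and made into libraries with an Illumina TruSeq kit, per the labels' protocols. Each deposited signal value is a gene's read count over a library-wide factor set by the authors. In every library 100% of values were whole multiples, within 0.001, of what 1 read would give, from which depth was taken. DESeq2, featureCounts, Subread 1.5.2 and the builds GRCm38 and mm10 appear in the submitters' processing notes, without roles or order. The annotation used and the strand setting are not given in the sources here. The tables were normalised separately and list genes above a mean of 11.2 (TG) or 17.8 (het), so each genotype was tested within its table.

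Values were taken to log2(value + 1) and fitted in R 4.3.3 with limma 3.58.1, using robust empirical Bayes with a mean trend, with Benjamini-Hochberg adjustment over all genes of a table, or over the 11754 genes of both for the difference of the effects, and a threshold of 0.05. Residual spread rests on 2 libraries per group. The fits were tested on simulated data. Lengths and positions came from GENCODE M21 on GRCm38, and start windows from RefSeq. Named genes were the 10 members, Ube3a, called members of the list of other droplet genes (or the 3 of smallest p), the 5 genes most like Cidec, genes overlapping a member, Lrg1 and measured adipocyte markers. Names that a spreadsheet had turned into dates (20 in TG, 18 in het) stayed in the tests within a table. The members, lists and tests were chosen with earlier results of these data known. Alternatives were other pseudocounts, CPM minimums, scalings, the replicate block, 1 fit of 8 libraries and leaving out each library.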

Additional observations from a re-analysis of the deposited data

Results flagged for a closer look

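Cidec and G0s2 stood out because their responses differed between the genotypes by the test of the difference itself. The log2 fold change in TG minus that in het was −5.70 for Cidec, made up of −2.71 in TG and 2.997 in het (joint limma fit, adjusted p = 0.0314). For G0s2 it was −2.92, made up of −1.46 and 1.46 (joint limma fit, adjusted p = 0.0314). Both TG libraries lay below their WT pair and both het libraries above theirs for either gene. Of all genes, 21.6% were placed so in TG and 24.3% in het. With 1 library left out the difference ranged from −6.23 to −5.18 for Cidec and from −3.22 to −2.62 for G0s2. Both calls ended in some of these fits, and that for G0s2 also ended with the replicate block. With 2 libraries per group no library could be tested as an outlier.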

How the results depend on the processing

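Of 417 values of single genes under other settings, 387 kept their direction and their side of the threshold, and none of those in het changed sign. The number of the 10 genes called in het was 4, and 4 under each pseudocount, CPM minimum and scaling and under the replicate block, 2 to 5 when 1 library was left out, and 0 with all 8 libraries in 1 fit, where the wider spread of the TG table is shared. In TG the number was 0, and 0 to 1 without a library. For the difference it was 2, then 1 with the replicate block and 0 to 4 without a library. The replicate numbers share only a number: deviations of libraries with the same number correlated at 0.11 in the TG table and −0.04 in the het table, and the block changed no other call of these genes. Over all genes, 0 were called in TG (25 in the 8-library fit, 0 to 146 without a library), 169 in het (93 without robust estimates, 0 in the 8-library fit, 61 to 173 without a library) and 51 for the difference (5 to 643 without a library). Without a library, 7 of the 417 values changed sign, in 5 results given here with their ranges: in TG Hilpda (−0.31 to 0.25), Plin3 (−0.027 to 0.83), Plin5 (−1.18 to 0.17) and Pnpla2 (−0.67 to 0.13), and for the difference Plin3 (−0.36 to 0.49); the cause was not tested. Where 1 library is left in a group, its spread is taken to be that of the other groups. With the longest transcript as length, the perilipin mix was 90.7% Plin2 and 2.55% Plin3 in the WT pair of TG, 86.7% Plin2, 0.407% Plin4 and 6.62% Plin5 in TG, 88.9% Plin2, 3.37% Plin3, 0.687% Plin4 and 7.02% Plin5 in the WT pair of het, and 88.8% Plin2, 2.22% Plin3, 2.44% Plin4 and 6.51% Plin5 in het, since Plin2 has the largest gap between both lengths (3512 and 1888 bases). Count models on recovered reads (edgeR, DESeq2 and limma-voom), planned as alternatives, were not run. Depth limits Hilpda most, at 16 to 102 reads.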

Other observations

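The tables were normalised separately and list different genes, so the levels of the WT pairs below are CPM of the listed values, given without a test. Cidec was at 13.04 and 26.6 CPM in the WT pair of the TG table and at 8.38 and 9.27 in that of the het table, beside 1.94 and 3.84 in TG and 62.0 and 79.0 in het. Plin4 was at 7.58 and 29.5 CPM in the former pair and at 15.7 and 13.9 in the latter, and Plin5 at 31.3 and 62.9 and at 64.3 and 41.2. The WT pairs did not overlap for Cidec, and they overlapped for Plin4 and Plin5. WT replicate 2 of the TG table thus had more Cidec, Plin4 and Plin5 than WT replicate 1, but less Plin2 (642 against 752 CPM).

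Pnpla3, a droplet-bound relative of the lipase Pnpla2, was chosen after its values were seen. Its normalised counts were 27835 and 796 in the TG libraries against 2614 and 2573 in WT, and 1100 and 250 in the het libraries against 234 and 171. In each mutant group replicate 1 stood several-fold above replicate 2, and in TG the other library lay below both WT libraries.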
